A study of Homo sapiens with 6 samples.

Results

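The 383 pseudogenes in the expression table of DU145 cells are described here. They are the rows whose annotated gene biotype contains the word pseudogene, and they made up 3.63% of the 10542 genes listed. From the gene symbol, 44 were assigned to cytosolic ribosomal protein genes, 3 to genes of the mitochondrial genome and 336 to other parents. The table's gene descriptions name a ribosomal protein gene as the parent of 30 of these other pseudogenes, which carry clone names such as AC005912.1. By biotype, 176 were processed pseudogenes and 34 were transcribed processed pseudogenes. In addition, 115 were transcribed unprocessed, 40 were unprocessed, 14 were transcribed unitary and 3 were polymorphic pseudogenes, and 1 was listed as pseudogene only.

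The cells were DU145, an established line from a human prostate carcinoma. DU145-TFEB cells were transduced with lentivirus to overexpress TFEB, a transcription factor that activates genes of lysosomes and autophagy, and DU145-vector cells received the empty vector. Each group had 3 libraries of mRNA from a puromycin-selected stable line. Whether these came from separate cultures is not stated for the sequencing itself, although the study describes its statistics in general as from independent experiments. Adjusted p-values measure the spread between these libraries, which may be technical.

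A pseudogene is a gene copy that has lost, or is thought to have lost, the ability to encode the protein of its parent. Processed pseudogenes arose when an mRNA was reverse transcribed and inserted elsewhere in the genome, so they lack introns, and abundant short mRNAs such as those of ribosomal proteins have left many such copies. Unprocessed pseudogenes came from duplication of a gene with its introns, and unitary pseudogenes are genes that decayed without a working copy left in the genome. Mitochondrial pseudogenes are stretches of mitochondrial DNA inserted into a nuclear chromosome. Because a copy can be nearly identical to its parent, a short read from one can align to the other.

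How alike the copies are can be read from their sequences. Each stretch below is the 60-base part, without gaps and within the parent's coding sequence, in which the pseudogene and its parent differ most, and capitals mark the bases that differ. Sequences were taken from GENCODE 29 transcripts, positions are GRCh38, and they are written 5′ to 3′ on the strand of the gene. The first 2 pairs are the ribosomal protein copies that are discussed for their high level, RPL9P9 (15:82372523-82372582, minus strand) and AC116533.1 (11:16974954-16975013, minus strand). Over the aligned length, 1 of 415 bases differed between RPL9P9 and RPL9, and none of 321 between AC116533.1 and RPL36A.
RPL9P9: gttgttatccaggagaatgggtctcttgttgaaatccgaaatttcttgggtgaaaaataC
RPL9: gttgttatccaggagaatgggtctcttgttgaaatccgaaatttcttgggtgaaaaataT
AC116533.1: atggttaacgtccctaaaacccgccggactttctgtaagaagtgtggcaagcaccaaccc
RPL36A: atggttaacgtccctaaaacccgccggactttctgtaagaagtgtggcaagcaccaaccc

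The next 2 pairs are the mitochondrial copy MTATP6P1 (1:633811-633870, plus strand), which is 98.53% identical to MT-ATP6, and RPL31P11 (1:161685014-161685073, minus strand), which moved in the opposite direction to its parent. RPL31P11 is 93.12% identical to RPL31 over the 465 bases that align, while its longest run without a difference is 37 bases.
MTATP6P1: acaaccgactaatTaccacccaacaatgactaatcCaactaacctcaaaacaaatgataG
MT-ATP6: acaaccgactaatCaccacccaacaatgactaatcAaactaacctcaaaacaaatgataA
RPL31P11: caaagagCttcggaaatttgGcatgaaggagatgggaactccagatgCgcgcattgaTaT
RPL31: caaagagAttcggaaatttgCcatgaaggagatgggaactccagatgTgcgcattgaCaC

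The last 3 are copies whose level was lower in DU145-TFEB, together with the coding gene closest to each in sequence. These are SMG1P7 (16:70221342-70221401, minus strand; 93.08% identical), HSP90AA2P (11:27889120-27889179, minus strand; 97.14% identical) and FOXO3B (17:18672634-18672693, minus strand; 99.07% identical).
SMG1P7: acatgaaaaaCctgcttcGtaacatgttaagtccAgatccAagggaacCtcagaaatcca
SMG1: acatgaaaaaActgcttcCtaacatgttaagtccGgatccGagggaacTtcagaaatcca
HSP90AA2P: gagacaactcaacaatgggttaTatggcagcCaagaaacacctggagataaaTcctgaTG
HSP90AA1: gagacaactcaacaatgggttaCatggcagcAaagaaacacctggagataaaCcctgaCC
FOXO3B: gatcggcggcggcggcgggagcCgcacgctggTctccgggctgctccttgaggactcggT
FOXO3: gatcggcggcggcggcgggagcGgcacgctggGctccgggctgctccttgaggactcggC

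Before the pseudogenes were compared, the labels were checked. TFEB itself had normalized counts of 6324.9, 6301.3 and 6035.9 in DU145-TFEB and of 127.4, 123.9 and 125 in DU145-vector, a log2 fold change of 5.62 (SE 0.08, adjusted p = 3.18e-10, limma). Normalized counts are reads divided by a size factor for each library, and all fold changes are DU145-TFEB over DU145-vector on the log2(normalized count + 1) scale, which understates the change of low genes. Of 5 epithelial markers KRT8, KRT18 and KRT19 were listed. KRT8 had the highest level per kilobase, with mean normalized counts of 16980 and 26870 in DU145-TFEB and DU145-vector. The remaining epithelial markers and the 7 markers of leukocytes, fibroblasts and endothelium were not listed. Since only genes that passed a test are listed, this does not show whether they were expressed.

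The table is a selection: the highest adjusted p-value deposited was 0.0499, so each listed gene had already passed a test on these libraries. In the fit made here 10539 of the 10542 listed genes (100% after rounding) had an adjusted p below 0.05, among them 382 of the 383 pseudogenes, and nothing is read from that count. Changes are therefore described by their direction and size, beside the same values for all listed genes. The libraries held 13999961, 16511477 and 14146832 reads on listed genes in DU145-TFEB and 14776019, 14603929 and 14217130 in DU145-vector, and the number of reads on pseudogenes ranged from 112584 to 165392.

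Pseudogenes took a larger share of the reads in DU145-TFEB. They accounted for 0.9818%, 1.0017% and 0.9504% of the reads on listed genes in DU145-TFEB, and for 0.7833%, 0.7752% and 0.7919% in DU145-vector, with no overlap between the groups. Their summed normalized count was 144912.5 ± 5450 (SD, n = 3) in DU145-TFEB and 112150 ± 1563 (SD, n = 3) in DU145-vector, a ratio of 1.29, while the sum over all listed genes had a ratio of 1.03. The sum was carried by few genes: 15 pseudogenes made up 50% of it, and the 10 most abundant made up 44.1%. An exact permutation test of 3 libraries against 3 cannot give a p below 0.1, so none is given for sums.

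The rise of the sum lay in the copies of ribosomal protein and mitochondrial genes. The summed normalized count of the 44 ribosomal protein pseudogenes was 63190.4, 68022.0 and 59170.9 in DU145-TFEB and 40816.1, 36046.2 and 40527.0 in DU145-vector, a ratio of 1.62, of which RPL9P9 held 31.0%. For the 30 clone-named copies of ribosomal protein genes the ratio was 1.55, and the most abundant was AC005912.1, a copy of RPS27. The 3 mitochondrial pseudogenes summed to 6650.4 ± 380.5 and 4392 ± 560 (SD, n = 3 each), a ratio of 1.51. In contrast, the remaining 306 pseudogenes had sums of 50289.4 ± 407.7 in DU145-TFEB and 52807 ± 1097.5 in DU145-vector, a ratio of 0.952.

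Counted as genes, pseudogenes were split between directions much like the whole table. Of the 383, 170 (44.4%) had a higher and 213 a lower level, beside 47.6% higher among all listed genes, and the median log2 fold change was -0.62, while the median of all listed genes was -0.36. The groups did not overlap in 168 of the higher pseudogenes (43.9% of the 383, beside 47.3% of all listed genes) and in 207 of the lower ones (54%, beside 52.0%). With cutoffs of 0.05 for the adjusted p and 1.5 for the absolute log2 fold change, 103 pseudogenes (26.9%) were lower, beside 16.5% of all listed genes. At the same cutoffs 16 (4.18%) were higher, beside 2.54% of all listed genes. The split depended on scaling: with quantile normalization 35 were higher and 36 lower, with size factors estimated over the listed genes 28 and 74, and with upper-quartile scaling 25 and 78. Over all 10542 listed genes the counts in these settings were 563 and 808, 466 and 1105, and 397 and 1275, and without rescaling 268 and 1741.

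**Figure D1:**
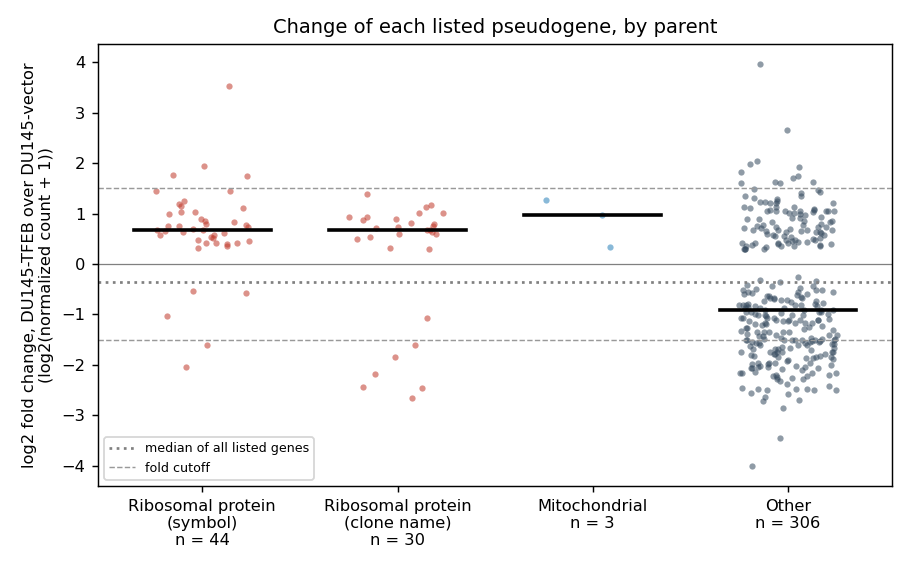
Log2 fold change of each of the 383 pseudogenes (y axis, DU145-TFEB over DU145-vector) by parent (x axis). Points are pseudogenes, black bars are medians, the dotted line is the median of all listed genes and dashed lines are the fold cutoffs of 1.5; the ribosomal protein and mitochondrial copies lie mostly above 0 (medians 0.68, 0.68 and 0.97), while the other 306 have a median of -0.92.

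These shares went with abundance. The median pseudogene had a mean normalized count of 66.5, while the median listed gene had 557.4. Among genes with a mean under 20, 74.1% of 85 pseudogenes and 55.1% of 581 listed genes were past both cutoffs and lower. Among those with a mean of 100 or more, the order was the other way, with 5.81% of 155 pseudogenes and 13.7% of 8617 listed genes, and the median log2 fold change of these abundant pseudogenes was 0.37 beside -0.30. When pseudogenes were required to have at least 10 reads in every library, 274 were left and their median was 0.38, beside -0.30 for the 9783 listed genes left. Of these 274, 25 (9.12%) were called lower, beside 13.6% of the listed genes, and 6 (2.19%) higher, beside 0.91%. Since a gene that fell to few reads in DU145-TFEB is removed by this filter, the change itself partly decides which pseudogenes stay.

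The change also went with base composition. Of the pseudogenes with a GC content under 40%, 4 were higher and 48 lower (median -1.35), and of those with 55% or more, 66 were higher and 14 lower (median 0.84). All listed genes showed the same order, with medians of -1.39 and 0.63. Spearman's rho between GC content and log2 fold change was 0.514 over the 383 pseudogenes and 0.739 over 10537 listed genes, given as a description since genes share libraries and base composition. After a trend against GC content and length was removed from each library, the median was -0.31 for the pseudogenes and -0.30 for all listed genes. In that setting 72 pseudogenes (18.8%) were lower past both cutoffs, beside 4.26% of listed genes, and 11 (2.87%) were higher, beside 1.43%. Several pseudogenes described below kept their direction but moved by over 1.5 times when the trend was removed. RPL9P9 (1.22), RPL13AP20 (-1.25), RPL32P3 (-0.87), MTND2P28 (0.76) and FOXO3B (-2.22) moved away from 0, while RPL13AP25 (0.54), CYP2T1P (0.85), KLRA1P (-1.31), RPSAP58 (0.21), SMG1P3 (-0.61) and HERC2P3 (-0.24) moved towards it. The part of base composition in the single results below was not tested, and for several genes the values with the trend removed are given as well.

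**Figure D2:**
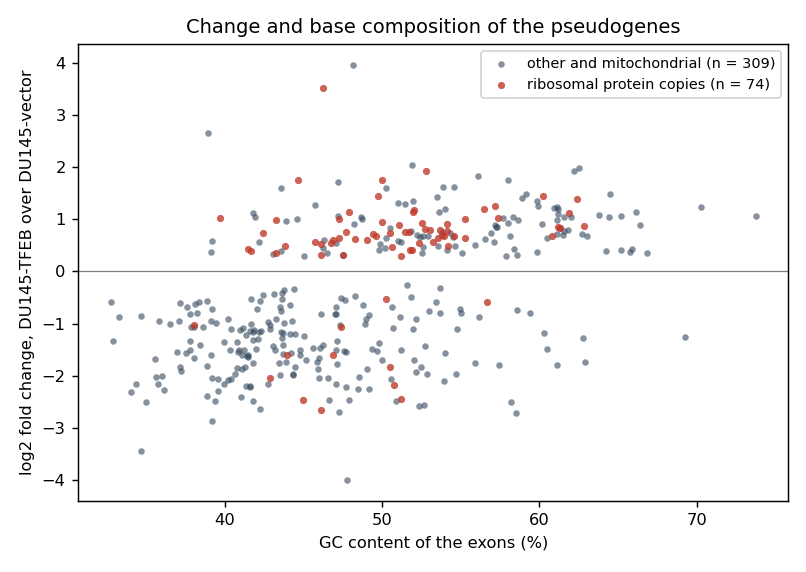
Log2 fold change (y axis, DU145-TFEB over DU145-vector) against GC content in percent (x axis) for 383 pseudogenes. GC content is that of the exons in the longest annotated transcript. The 74 ribosomal protein copies are in red and the other 309 in dark blue. Values rise with GC content in the dark points (rho = 0.5), and the red points lie mostly above 0.

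Most ribosomal protein pseudogenes were higher in DU145-TFEB. Of the 44, 39 were higher and 5 lower, with a median of 0.68, and the counts were the same under each of the 4 other scalings. In the 4 whose biotype marks them as transcribed the median was 0.11, and these were RPL9P9 and RPLP0P2, which were higher, and RPL31P11 and RPL32P3, which were lower. The median lay above that of all listed genes by 1.04, or by 0.941 after quantile normalization. With the GC and length trend removed, 35 were higher and 9 lower with a median of 0.47. Past both cutoffs were 4 higher (9.09%, beside 2.54% of all listed genes) and 2 lower (4.55%, beside 16.5%). Of their 66 coding counterparts in the table, the genes of the cytosolic ribosome, 65 were higher, with a median of 0.61 and none past both cutoffs. With the trend removed, 48 of the 66 were higher and 18 lower, with a median of 0.32. The 30 clone-named copies had 23 higher and 7 lower with the same median as the symbol-named ones, 0.68, and 6 of the 30 (20%) were lower past both cutoffs, beside the same 16.5%. Removing the trend left 21 of the 30 higher and 9 lower, with a median of 0.40.

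RPL9P9, a transcribed processed pseudogene on chromosome 15 (82372196-82372912), had the highest level per kilobase in the class, with normalized counts of 19450.4, 21240.6 and 18940.4 in DU145-TFEB and 12420.0, 10947.8 and 12283 in DU145-vector. Its log2 fold change was 0.74 (SE 0.08, adjusted p = 1.96e-05, limma). RPL9, which encodes a protein of the large ribosomal subunit, had 0.68 (SE 0.07), with means of 15110 and 9399. Per kilobase of annotated exon, the mean over the 6 libraries was 22150 for RPL9P9 and 2440 for RPL9, although the length used for RPL9 sums the exons of all its transcripts. As shown above, a 60-base read could separate the pair by at most 1 base in the aligned coding part, and 85.18% of the 50-base windows of RPL9P9 occur unchanged in a transcript of RPL9. Reads from RPL9P9 and RPL9 cannot be told apart in those windows.

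AC005912.1, a processed copy of RPS27 on chromosome 12 (3211663-3211917), had the highest level per kilobase of all pseudogenes outside the symbol-named classes, at 31900, beside 24070 for RPS27. Its normalized counts were 9481.6, 10294.1 and 9603.6 in DU145-TFEB and 6671.2, 6307.3 and 6452 in DU145-vector. The log2 fold change was 0.60 (SE 0.06), equal to that of RPS27, 0.60 (SE 0.08). A second RPS27 copy, AC099560.2, rose by 0.72 (SE 0.11), and its groups did not overlap.

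RPS2P5, a processed copy of the small-subunit gene RPS2 on chromosome 12 (118246084-118246962), had 13592.7, 15025.7 and 11769.6 in DU145-TFEB and 7770.0, 6454.5 and 8027 in DU145-vector. Its log2 fold change was 0.86 (SE 0.11) beside 0.62 for RPS2, but it was -0.07 with the GC and length trend removed, where RPS2 was -0.24. RPL39P3, which is identical to RPL39 over its aligned length, rose by less: its counts were 1526.8, 1605.1 and 1500.4 in DU145-TFEB and 1395.8, 995.8 and 1161 in DU145-vector. The log2 fold change was 0.40 (SE 0.12) for RPL39P3 and 0.25 for RPL39, and with the trend removed RPL39P3 was at 0.91, above RPS2P5, and RPL39 at 0.10.

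With a mean normalized count of 20 or more required, the largest rises of ribosomal protein copies included those of RPL34P18, RPL41P5 and RPL13AP25. RPL34P18 had 41.0, 41.9 and 36.3 in DU145-TFEB and 13.7, 9.8 and 10 in DU145-vector, a log2 fold change of 1.76 (SE 0.25), while its parent RPL34 had 0.48 (SE 0.09). RPL41P5, an annotated unit of 78 bases, had 123.1, 273.9 and 112.1 beside 52.0, 38.0 and 48, a log2 fold change of 1.75 (SE 0.32), while RPL41 had 0.56. In that gene DU145-TFEB replicate 2 stood well above the other two. RPL13AP25 rose by 1.25 (SE 0.24) and RPL13A by 0.95.

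**Figure D3:**
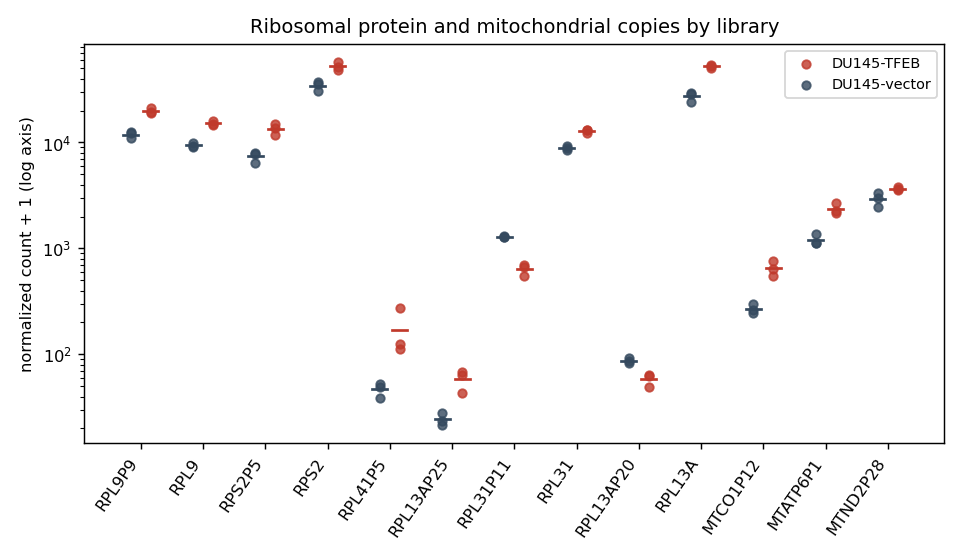
Normalized count + 1 on a log axis in each of the 6 libraries for ribosomal protein and mitochondrial pseudogenes, with some parents beside them; points are libraries and bars are group means. RPL31P11 and RPL13AP20 are lower in DU145-TFEB (red) than in DU145-vector (dark blue), while the parents RPL31 and RPL13A are higher.

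Only 5 symbol-named ribosomal protein copies were lower, and 3 of them met the rule for naming. RPL31P11, a transcribed processed pseudogene on chromosome 1 (161683695-161685252), had 659.7, 544.1 and 700.9 in DU145-TFEB and 1302.7, 1286.4 and 1271 in DU145-vector, a log2 fold change of -1.03 (SE 0.10, adjusted p = 1.69e-05, limma). With the trend removed it was -0.29. RPL31 rose by 0.53 (SE 0.06) in the same libraries. No 50-base window of RPL31P11 occurs unchanged in RPL31, and 29.5% of its length aligns to it. How reads were assigned between them was not tested. RPL13AP20 was lower by 0.58 on the log2 scale (SE 0.18), with 61.0, 62.8 and 47.8 beside 81.4, 90.7 and 85, although RPL13A rose by 0.95. RPL32P3, an unprocessed copy with 154.7, 152.9 and 183.8 beside 232.3, 246.8 and 231, fell by 0.53 (SE 0.13), and RPL32 rose by 0.54, but no alignment of RPL32P3 to a transcript of RPL32 was found.

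Some of the most extreme changes were in genes with few reads, and 3 members picked after their values were seen illustrate them. RPS12P23 had 23.1, 30.9 and 28.0 in DU145-TFEB and 3.9, 0.0 and 2 in DU145-vector, and IPPKP1, a copy of the inositol phosphate kinase gene IPPK, had 27.4, 35.5 and 20.8 beside 1.0, 0.0 and 2. COX6B1P5, a copy of a gene for a cytochrome c oxidase subunit, had 0.0, 0.0 and 1.0 in DU145-TFEB and 20.6, 20.5 and 17 in DU145-vector. No fold is given for these genes, as some libraries were at or under 3 reads. COX6B1 itself was higher, by 0.79.

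The direction of ribosomal protein copies was compared with how much sequence they share. Of the 41 copies (symbol or description) with at least 50% of their 50-base windows found unchanged in another gene's transcript, 39 were higher and 2 lower, and of the 33 with less, 23 were higher and 10 lower. The medians of both groups were close, 0.69 and 0.63, but their median normalized counts differed, 652.3 and 40.45. By identity, 49 of the 51 copies that were at least 95% identical to a listed parent moved in its direction, with a median of 0.74. Among the 14 under 95% this was so for 8, with a median of -0.01, while the median of their parents was 0.58. These 14 were mostly low in abundance: apart from RPL31P11 (960.8), their mean normalized counts ran from 2.64 (AL451007.1) to 38.52 (AL354718.1). Abundance was not held equal in either comparison, and its part was not tested.

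The same order was seen across all parents. A parent could be assigned to 257 pseudogenes, 184 from the symbol and 73 from the description, and for 92.2% of these it was also the closest coding gene in sequence. For 212 of them, which belong to 159 parents, the parent was listed. Of the 212, 184 (86.8%) changed in the same direction as the parent. This held for 129 of 136 pairs (94.9%) with at least 95% identity and for 52 of 70 (74.3%) below that. Across pairs, Spearman's rho of the log2 fold changes was 0.808 for the former and 0.38 for the latter, as a description, since pairs share libraries, base composition and, where sequences are close, reads. With the GC and length trend removed, 162 pairs changed in the same direction. Abundance was not held equal between the identity groups.

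**Figure D4:**
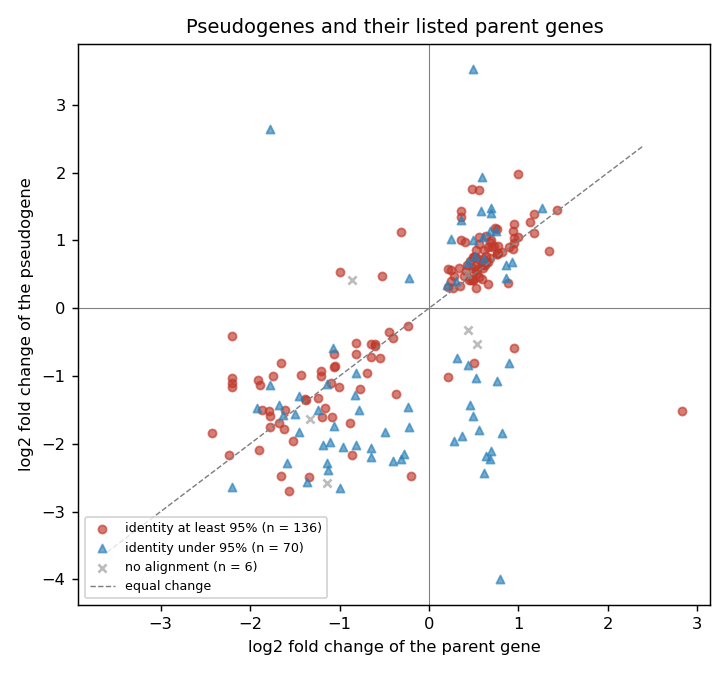
Log2 fold change of the pseudogene (y axis) against that of its listed parent gene (x axis) for 212 pairs, by identity of the transcripts. Red points (at least 95% identical, 136 pairs) follow the dashed line of equal change, while blue triangles (under 95%, 70 pairs) are more scattered, with 16 in the lower right, where the parent was higher and the pseudogene lower.

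Where directions differed, it was mostly the pseudogene that was lower: 22 pairs had a lower pseudogene and a higher parent, and 6 the reverse. Only 7 of these 28 pairs were at least 95% identical. AC116533.1 is the extreme case, since its sequence is identical to part of RPL36A and all of its windows are shared. It had 3145.1, 3041.0 and 2969.7 in DU145-TFEB and 2106.4, 2125.2 and 2064 in DU145-vector, a log2 fold change of 0.54 (SE 0.06). RPL36A, the only one of the 66 ribosomal protein genes that was lower, had 45.2, 46.4 and 58.1 beside 79.4, 125.8 and 99, a log2 fold change of -0.99 (SE 0.21). Per kilobase the mean was 8023 for AC116533.1 and 19.1 for RPL36A. How the counting program divided reads between the copies is not stated in the sources used here.

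PGM5P2, chosen after its values were seen, is a transcribed unprocessed copy of PGM5, which encodes a phosphoglucomutase-like protein. It had 120.0, 65.5 and 152.6 in DU145-TFEB and 225.4, 413.5 and 304 in DU145-vector, and its log2 fold change was -1.51 (SE 0.31), while that of PGM5 was 2.83. The transcripts are 98.52% identical over the 61.3% of PGM5P2 that aligns, and 34.44% of the windows of PGM5P2 are shared with other genes. In level, 25 of the 212 pseudogenes were above their parent per kilobase, and 22 of these were at least 95% identical to it. The median level per kilobase was 55.4 for the pseudogenes and 787 for the parents.

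All 3 mitochondrial pseudogenes were higher in DU145-TFEB, and each moved like its mitochondrial parent. They lie next to each other on chromosome 1, between positions 629640 and 634376, in the nuclear genome. MTCO1P12 had 759.7, 542.3 and 637.5 in DU145-TFEB and 242.1, 260.4 and 297 in DU145-vector, a log2 fold change of 1.27 (SE 0.14), beside 1.13 (SE 0.10) for MT-CO1, a catalytic subunit of cytochrome c oxidase. MTATP6P1 had 2695.8, 2241.2 and 2153.5 beside 1133.1, 1379.1 and 1117, and its change of 0.97 (SE 0.11) was close to the 0.95 (SE 0.07) of MT-ATP6, a subunit of ATP synthase. MTND2P28 had 3603.9, 3523.3 and 3794.1 beside 2457.3, 3313.1 and 2977, a change of 0.33 (SE 0.10), and MT-ND2, a subunit of complex I, had 0.35 (SE 0.08). The order of the pseudogenes was thus that of the parents. All 12 listed protein genes of the mitochondrial genome were higher, with a median of 0.66. Per kilobase the parents were far above the copies: MT-ATP6 had a mean of 41960 and MTATP6P1 of 2624. Reads from stretches without a difference cannot be assigned to the copy or the parent by sequence, and their part in these changes was not tested.

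The other pseudogenes were mostly lower. Of the 306 without clone-named ribosomal protein copies, 105 were higher and 201 lower, with a median of -0.92, and past both cutoffs were 12 higher (3.92%, beside 2.54% of all listed genes) and 95 lower (31.0%, beside 16.5%). With the GC and length trend removed, 87 of the 306 were higher and 219 lower, with a median of -0.60. Of the 137 processed pseudogenes of parents other than ribosomal protein genes, 103 were lower, with a median of -1.32, and 56 (40.9%) were lower past both cutoffs, beside 16.5% of all listed genes. The median normalized count was 56.8 for the 306 and 34.4 for the 137, beside 557.4 for all listed genes. Lower past both cutoffs were 55.1% of listed genes with a mean under 20 and 17.8% of those from 20 to 100. Unitary pseudogenes were mostly higher, with 11 of 14 higher and a median of 0.68. With the GC and length trend removed 7 were higher and 7 lower, and their median GC content was 55.6%.

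SMG1P7, a transcribed unprocessed pseudogene on chromosome 16 (70219574-70246610), fell most of the other pseudogenes that averaged 20 or more, with 17.9, 26.4 and 22.8 in DU145-TFEB and 128.4, 170.7 and 134 in DU145-vector. The log2 fold change was -2.64 (SE 0.21, adjusted p = 6.15e-06, limma). Its parent SMG1, a kinase of nonsense-mediated mRNA decay, had 690.3, 456.8 and 949.0 beside 2974.9, 3214.6 and 3049, a change of -2.20 (SE 0.21). The other SMG1 pseudogenes fell less, SMG1P3 by 1.17, SMG1P5 by 1.10 (SE 0.17), SMG1P2 by 1.02 (SE 0.35) and SMG1P1 by 0.41 (SE 0.15). The direction of SMG1P1 turned with quantile normalization (0.06) and with the GC and length trend removed (0.15), while the other 4 stayed lower in both. SMG1P5 and SMG1P2 were nearer to 0 with that trend removed, at -0.60 and -0.56.

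KLRA1P, related to natural killer cell lectin-like receptors, had 7.4, 4.5 and 6.2 in DU145-TFEB and 25.5, 45.8 and 32 in DU145-vector, a log2 fold change of -2.31 (SE 0.32). LRRC37A9P had 12.6, 9.1 and 13.5 beside 60.8, 55.6 and 60, a change of -2.25 (SE 0.24). AC060766.1, whose description names the small GTPase gene RAB32 as parent, had 16.8, 10 and 18.7 beside 70.6, 76.1 and 70 and fell by 2.22 (SE 0.26), while RAB32 rose by 0.68. The closest coding gene in sequence was RAB38 (75.9% identity, beside 65.21% for RAB32), with a log2 fold change of 1.82. AC060766.1 shares exons with the listed gene AC060766.7 on the same strand, which fell by 2.68.

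**Figure D5:**
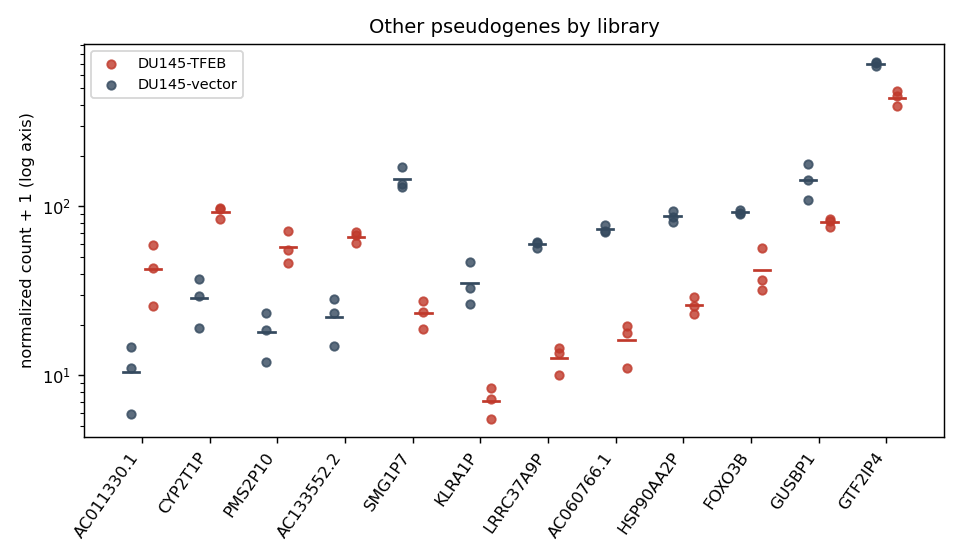
Normalized count + 1 on a log axis in each of the 6 libraries for 12 other pseudogenes; points are libraries and bars are group means. AC011330.1, CYP2T1P, PMS2P10 and AC133552.2 are higher in DU145-TFEB (red), and the other 8 are lower than in DU145-vector (dark blue).

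Among the other pseudogenes that averaged a normalized count of 20 or more, the largest rises were seen in AC011330.1, CYP2T1P, PMS2P10 and AC133552.2. AC011330.1 had 42.1, 58.2 and 24.9 in DU145-TFEB and 4.9, 13.7 and 10 in DU145-vector, a log2 fold change of 2.04 (SE 0.41). Its closest coding gene was PPIP5K1, an inositol pyrophosphate kinase gene, at 99.97% identity, and PPIP5K1 rose by 0.51. CYP2T1P, a unitary pseudogene of the cytochrome P450 superfamily, had 95.8, 82.8 and 96.6 beside 36.3, 28.3 and 18 and rose by 1.75 (SE 0.26). PMS2P10, from the family of the mismatch repair gene PMS2, had 70.5, 45.5 and 54.0 beside 22.5, 17.6 and 11 and rose by 1.71 (SE 0.30). For AC133552.2 the values were 66.3, 60.1 and 69.6 beside 22.5, 27.3 and 14, a rise of 1.62 (SE 0.26). PMS2 itself was not analysed here.

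HSP90AA2P and FOXO3B matched the change of their closest coding genes. HSP90AA2P had 22.1, 28.2 and 24.9 in DU145-TFEB and 80.4, 85.8 and 93 in DU145-vector, a log2 fold change of -1.75 (SE 0.19), and HSP90AA1, the stress-inducible HSP90 chaperone gene, also had -1.75, with mean normalized counts of 7768 and 26030. FOXO3B had 35.8, 55.5 and 31.2 beside 94.1, 89.7 and 91, a change of -1.19 (SE 0.23), and FOXO3, a forkhead transcription factor gene, had -1.19 with means of 339.1 and 765.8. FOXO3B also shares exons with ZNF286B on the same strand, which was lower by 1.48 on the log2 scale. Of the 6 chaperone and peptidylprolyl isomerase pseudogenes, all were lower (median -1.41), among them HSPD1P1 (-1.32, beside -1.24 for HSPD1) and CCT8P1 (-1.60, beside -1.19 for CCT8), and 3 (50%) were past both cutoffs, beside 16.5% of all listed genes.

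Other groups of the same symbol list moved together to different degrees. The 5 copies of genes for nuclear-encoded mitochondrial proteins were lower, with a median of -1.46, and so were the 3 ubiquitin and proteasome copies, with a median of -1.57. Both groups were low in abundance, with median normalized counts of 13.4 and 12.4. Among all listed genes with a mean under 20, 395 of 581 were lower, with a median of -1.63. Among 12 zinc finger pseudogenes 11 were lower (median -1.28), with 6 (50%) past both cutoffs, beside 16.5% of all listed genes and 42.0% of those with a GC content under 40%. ZNF37BP had 129.4, 92.8 and 181.7 in DU145-TFEB and 501.9, 632.0 and 503 in DU145-vector, a change of -2.05 (SE 0.22), whereas ZNF815P was higher by 0.93. The zinc finger pseudogenes have a median GC content of 39.8%, and with the GC and length trend removed their median was -0.36, near that of all listed genes (-0.30). In that setting 3 of the 12 were higher, and none, ZNF815P included, was above 0.25. Translation factor copies were mixed, with 2 of 5 higher, and the ferritin heavy chain copy FTH1P7 was higher by 0.91 beside 0.72 for FTH1.

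Families with at least 4 listed pseudogenes differed in how alike their members were. All 4 copies of PTMA, the gene of the nuclear protein prothymosin alpha, were higher, with changes from 1.01 to 1.43 beside 0.35 for PTMA, and they stayed higher under every scaling and with the trend removed. The 4 copies of RPSA, a ribosomal protein also known as the laminin receptor, rose by 0.42 to 0.75 beside 0.49. They too stayed higher in each setting, but with the trend removed they rose by 0.12 to 0.49, beside 0.78 for RPSA. RPSAP58 had 1334.2, 1491.4 and 1458.9 in DU145-TFEB and 983.1, 882.6 and 1095 in DU145-vector. The 4 WHAMM copies were lower, from -1.55 to -0.61, although 1 was higher with the trend removed. In the LRRC37 family 6 of 7 were lower, or 5 of 7 with quantile normalization and also with the trend removed. Of the 4 BMS1 copies 3 were lower, while BMS1P22 had normalized counts of 9.5, 5.5 and 6.2 in DU145-TFEB and 1.0, 0.0 and 0 in DU145-vector, for which no fold is given.

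Of the pseudogenes known from the literature, HSP90AA2P was past both cutoffs, as described above, and the others were not. Among all listed genes 16.5% were lower and 2.54% higher past both cutoffs. The HERC2 copies, from a gene for a ubiquitin ligase, were lower: HERC2P2 had 475.6, 432.2 and 625.1 in DU145-TFEB and 828.3, 1250.3 and 1006 in DU145-vector and fell by 1.00 (SE 0.17), HERC2P9 fell by 1.08 and HERC2P3 by 0.92. GTF2IP4 fell by 0.67 (SE 0.10), with 448.2, 389.5 and 480.8 beside 700.8, 715.9 and 680, and its parent GTF2I, a general transcription factor gene, by 0.82. NBPF8 fell by 0.81 (SE 0.11). GUSBP1 went against its parent: it fell by 0.80 (SE 0.19), with 81.0, 74.6 and 83.1 beside 107.8, 176.5 and 142, while GUSB, which encodes the lysosomal enzyme beta-glucuronidase, rose by 0.89 (SE 0.08). Only 3.3% of GUSBP1 aligned to GUSB, and the closest coding gene over a similarly short stretch was WDR70, with a log2 fold change of -0.59. With the trend removed GUSBP1 was at 0.16 and GUSB at 0.25.

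Among the literature members that were higher, PMS2P1 had 823.9, 873.5 and 761.1 in DU145-TFEB and 542.0, 501.3 and 512 in DU145-vector, a log2 fold change of 0.66 (SE 0.09), or 0.19 with the trend removed. STAG3L5P, which overlaps it by position on the opposite strand, rose by 0.75 (SE 0.18), or by 0.08 with the trend removed. CSPG4P12 rose by 0.44, or 0.55 with the trend removed, while CSPG4, a proteoglycan gene, rose by 0.86 but was at -0.13 with the trend removed. CROCCP2 (0.37), PKD1P6 (0.35) and WASH7P (0.71) also had higher values, but these turned to -0.73, -0.77 and -0.20 with the trend removed. The parents behaved likewise, since CROCC went from 0.89 to -0.17 and PKD1 from 0.66 to -0.28.

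A few genes with a pseudogene biotype are not copies in the usual sense. GPX1, which encodes a glutathione peroxidase and is annotated as a polymorphic pseudogene, had 3356.6, 4092.0 and 3208.5 in DU145-TFEB and 2740.6, 2456.8 and 2924 in DU145-vector, a log2 fold change of 0.39 (SE 0.10), or -0.69 with the trend removed. The other polymorphic pseudogenes, the glutathione transferase gene GSTT2 and the polycystin gene PKD1L2, were higher by 1.83 and 1.03. GSTT2 is not among the largest rises named above, for which a mean normalized count of at least 20 was required.

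Position in the genome was compared last. Of the 383 pseudogenes, 229 overlapped another annotated gene and 91 overlapped a listed gene, 28 of them on the same strand. In these 28, 24 moved in the direction of the overlapping gene, and their median was -1.34. On the opposite strand, with each pair of genes counted once, 53 of 67 overlaps moved together, and 25 of the 29 in which exons overlapped did. Strand use in counting is not stated in the sources used here. Where exons overlap, reads of a pseudogene and of a gene across from it therefore cannot be told apart. The 292 pseudogenes without such an overlap had a median of -0.58, with 133 higher and 159 lower, close to the values of all 383.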

How the data were processed

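The 6 mRNA libraries were grouped and numbered from the sample labels. The deposited values are a normalized signal: the authors divided the reads of a gene by the size factor of the library. The deposited signal gave whole reads for 100.0% of values within 0.1 of a read. They also deposited comparison columns (log2 fold change, p-value, adjusted p-value), of which only the range of the adjusted p-value was read. According to the submitters' processing notes, CASAVA 1.8, HISAT2 2.1.0, edgeR and GRCh38 were used, and the study's methods name DESeq2; the counting program and strand setting are not given in the sources used here. Positions of all 10542 genes equal GENCODE 29.

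Log2(normalized count + 1) was fitted for all listed genes with limma 3.58.1 (R 4.3.3), using its mean-variance trend, with Benjamini-Hochberg adjustment. Genes past both cutoffs had an adjusted p under 0.05 and a log2 fold change over 1.5 in size. The steps were run on simulated data with large changes in a small part of the genes, each with a mean normalized count of at least 20. Smaller changes, and changes in genes with lower counts, were not simulated. Recovered reads were also fitted with edgeR 4.0.16 and DESeq2 1.42.0 as alternatives. Pseudogene transcripts were aligned to coding transcripts with blastn 2.17.0, and 50-base windows were searched without mismatch in transcripts of other genes. GC and length trends were removed by loess (span 0.5).

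Named pseudogenes were, per class, the 4 largest rises and falls with a mean normalized count of at least 20 and groups that did not overlap, the 3 highest per kilobase, a written list known from the literature, families of at least 4, and the listed parents; exceptions are stated, and a few that met the rule or a marker list are not reported here. Members, classes and lists were chosen with earlier results of these data known. Pseudogenes linked to the Y chromosome are counted but not named. With 3 libraries a group, precision is limited by their number; counting error was not modelled apart.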

Additional observations from a re-analysis of the deposited data

How the results depend on the processing

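The number of pairs changed in the same direction stayed within 1.5 times its value in each setting run. The number of pseudogenes higher past both cutoffs (16) was 6 with a pseudocount of 5, 6 with at least 10 reads in every library, 28 with size factors estimated over the listed genes, 25 with upper-quartile scaling, 35 with quantile normalization, 31 with DESeq2, 61 at a log2 cutoff of 1 and 170 at a cutoff of 0. At the unchanged cutoff, the share higher was above that of all listed genes in each of these settings. In the same order it was 1.57% beside 1.08%, 2.19% beside 0.91%, 7.31% beside 4.42%, 6.53% beside 3.77%, 9.14% beside 5.34% and 8.09% beside 4.59%. For log2 cutoffs of 1 and 0 the shares over all listed genes are not given here. The number lower (103) was 34 with a pseudocount of 5, 25 with at least 10 reads, 36 with quantile normalization and 212 at a cutoff of 0. The share lower was below that of all listed genes with a pseudocount of 5 (8.88% beside 13%) and with at least 10 reads (9.12% beside 13.6%), and above it with quantile normalization (9.4% beside 7.66%) and with the GC and length trend removed (18.8% beside 4.26%). The median of all pseudogenes (-0.62) reversed to 0.38 with at least 10 reads, when 274 pseudogenes remain, and was -0.39, -0.45 and -0.31 with listed-gene size factors, upper-quartile scaling and quantile normalization, -0.56 with edgeR, -0.39 with DESeq2, -0.31 with the GC and length trend removed and -0.79 in transcribed biotypes only. For ribosomal protein pseudogenes (0.68) it was 0.92, 0.86 and 0.91 under the 3 scalings, 0.92 with DESeq2, 0.47 with the trend removed and 0.11 in transcribed biotypes only. For mitochondrial pseudogenes (0.97) it was 1.21 and 1.14 with listed-gene size factors and upper-quartile scaling, 1.21 with DESeq2 and 1.31 with the trend removed. For other pseudogenes (-0.83) it was -0.32 with at least 10 reads, where all listed genes had -0.30. Their median was -0.60, -0.66 and -0.55 under the 3 scalings, -0.62 with DESeq2 and -0.57 with the trend removed. Scaling moved the median of all listed genes too, from -0.36 to -0.12, -0.18 and -0.03. With the trend removed RPS2P5 (-0.066), GUSBP1 (0.16), CROCCP2 (-0.73), WASH7P (-0.20), PKD1P6 (-0.77) and SMG1P1 (0.15) reversed, as SMG1P1 did with quantile normalization (0.061). GPX1 also reversed with the trend removed, as given above. The causes were not tested.

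The replicate numbers did not pair the samples: deviations of same-numbered libraries correlated at -0.018, -0.246 and -0.141. With a replicate block 104 pseudogenes were lower past both cutoffs, and with the block and the trend removed together the medians were -0.31, 0.47, 1.31 and -0.57.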
